A study of Mus musculus with 6 samples.

Results

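The enzymes that build, sulfate and trim heparan sulfate, chondroitin sulfate and dermatan sulfate were examined in cultured mouse hepatic stellate cells, the vitamin A-storing pericytes of the liver. The set holds 43 genes, chosen by name for their known role in these pathways, with earlier results of these data known. It covers the linkage region, the heparan and chondroitin polymerases, the sulfotransferases and epimerases, the extracellular editing enzymes and the supply of the sulfate donor. All 43 were among the 17909 gene identifiers listed in at least 1 library, and 41 of them had enough reads to be tested among 13014 genes.

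Sulfated glycosaminoglycans are long sugar chains carried on the core proteins of proteoglycans. A linker of xylose, galactose and glucuronic acid is first placed on a serine of the core protein, and the next sugar decides whether a heparan or a chondroitin chain follows. Polymerases extend the chain, and sulfotransferases and epimerases in the Golgi then modify stretches of it, using the activated sulfate PAPS. The resulting sulfation pattern is known to set which growth factors, morphogens and enzymes the chain binds, and in the liver these chains are found in the space of Disse, where stellate cells lie.

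RNA sequencing was done on 6 libraries of stellate cells collected at day 1 of culture. In the HAS2_Tg group (replicates 4, 5 and 6) the mice carried a human HAS2 transgene under the alpha smooth muscle actin promoter, which is active in activated stellate cells and in smooth muscle. In the Has2_KO group (replicates 7, 8 and 9) a floxed Has2 was removed in stellate cells by Lrat-Cre. All mice are labelled as male C57BL/6 of 24 weeks, and there was no wild-type group, so each difference below is between these genotypes and shows neither one's distance from a normal stellate cell. Has2 makes hyaluronan, the glycosaminoglycan that is neither sulfated nor attached to a core protein. Cells from both groups were isolated by liver perfusion and a Nycodenz density gradient, depleted of macrophages with Cd11b microbeads, left to attach for 4 h and cultured for a further 14 h with 10% FBS. The labels do not say that the replicates came from separate animals, so the p-values measure the spread between these libraries, which may be in part technical.

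Total expected counts, the authors' estimates of reads per gene, were between 11961726 and 12423220 per library. Has2 itself had 847, 889 and 835 counts in the HAS2_Tg libraries and 1 count in each Has2_KO library. How far reads of the human transgene were counted on the mouse gene was not tested. Within the HAS2_Tg group, replicate 4 stood apart: over genes with at least 20 counts in a pair, its chi-square per degree of freedom was 22.8 against replicate 5 and 31.5 against replicate 6, while replicates 5 and 6 gave 6.24 and the Has2_KO pairs 2.31 to 3.17. The stellate cell markers were well represented in both groups, with a summed level of 10630 to 11580 CPM (counts scaled to a fixed library total, after TMM normalisation) in HAS2_Tg and 7199 to 7561 CPM in Has2_KO, and 9 of the 12 were higher in HAS2_Tg and 0 lower. Markers of other liver cells differed far more. The 15 sinusoidal endothelial markers summed to 25.34 to 29.42 CPM in HAS2_Tg against 1090 to 1193 CPM in Has2_KO, and all 15 were lower in HAS2_Tg. The 15 Kupffer cell and macrophage markers summed to 14.86 to 17.13 CPM against 603.5 to 648.0 CPM, with 14 of 14 tested lower. The 10 hepatocyte markers summed to 23.77 to 25.52 CPM against 56.25 to 70.98 CPM, with 5 of 6 tested lower. The 5 mesothelial markers summed to at most 0.449 CPM in HAS2_Tg and 4.04 to 5.25 CPM in Has2_KO, and the 1 tested, Wt1, was lower. The 5 smooth muscle and activation markers summed to 11930 to 14600 CPM against 2679 to 2753 CPM, and all 4 tested were higher in HAS2_Tg. In bulk RNA, fewer cells of a type and less RNA per cell cannot be told apart.

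Of the 41 enzymes tested, 10 were higher in HAS2_Tg and 10 were lower at an adjusted p under 0.05 (edgeR's quasi-likelihood test with Benjamini-Hochberg adjustment over all 13014 genes). The 20 called genes are 48.8% of those tested, where 40.7% of all genes tested were called, 20.2% higher and 20.5% lower. These shares of all genes stand beside each count by role or list given below. The median log2 fold change, HAS2_Tg minus Has2_KO, was -0.01 for the enzymes and -0.01 for all genes. The share called was thus not far from that of all genes, and the enzymes of some steps moved together (Hs6st1 and Hs6st2) while those of others did not (Chst11 and Chst12). At a change of at least 1.5-fold, 10 of 41 enzymes were called (24.4%, beside 19.4% of all genes): 6 higher (Hs6st1, Hs6st2, Hs3st3a1, Hs3st3b1, Chst12 and Papss2) and 4 lower (Xylt1, Sulf1, Csgalnact1 and Chst11). At 2-fold or more, 6 were called (14.6%, beside 11.2% of all genes), of which Hs6st1 and Hs6st2 were higher and Xylt1, Sulf1, Csgalnact1 and Chst11 lower. The split between directions depends on the scaling: scaled by total counts in place of TMM, the median of all genes moved by -0.17, and 8 enzymes were called higher and 15 lower, with 1477 higher and 4827 lower over all genes against 2625 and 2673 with TMM.

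**Figure D1:**
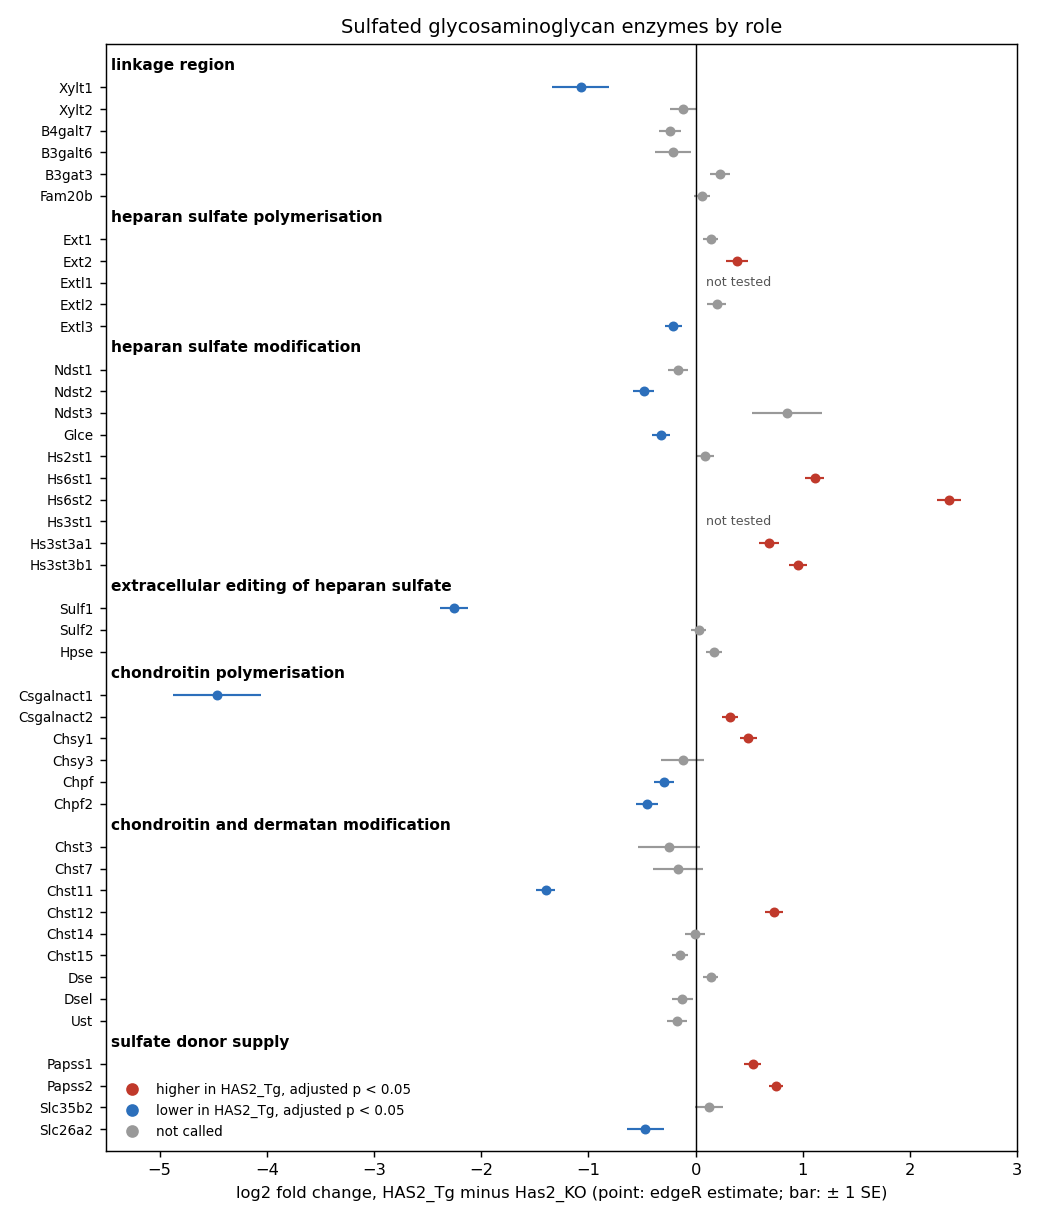
Log2 fold change (horizontal axis, HAS2_Tg minus Has2_KO) of each of the 43 enzymes, arranged by role; points are edgeR estimates and bars are 1 standard error, coloured by the call. Csgalnact1, Sulf1, Chst11 and Xylt1 lie farthest to the left and Hs6st2 and Hs6st1 farthest to the right, while most enzymes lie within 0.5 of zero; Extl1 and Hs3st1 were not tested.

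The sulfotransferases that add the last sulfates to heparan sulfate held the clearest group of higher genes, and their sequences bear on how they are read. Hs6st1 and Hs6st2 add sulfate at the 6-O position of glucosamine, and Hs3st3a1 and Hs3st3b1 at its 3-O position. Hs3st3a1 (chr11:64435332-64522835, plus strand) and Hs3st3b1 (chr11:63884693-63922284, minus strand; both GRCm38) are close paralogs on chromosome 11. Their coding sequences aligned over 773 bases with 97.7% identity, and they share an exact run of 401 bases, whose first 240 are shown because reads inside it cannot be assigned to either gene by sequence. It lies in Hs3st3a1 at chr11:64520310-64520710, coding bases 673 to 1073 of 1179, and in Hs3st3b1 at chr11:63889233-63889633, coding bases 667 to 1067 of 1170 (GENCODE transcripts on GRCm38), and is written in lower case as the coding strand. The bases shown span chr11:64520310-64520549 in Hs3st3a1 and chr11:63889394-63889633 in Hs3st3b1.
Hs3st3a1 and Hs3st3b1 shared run: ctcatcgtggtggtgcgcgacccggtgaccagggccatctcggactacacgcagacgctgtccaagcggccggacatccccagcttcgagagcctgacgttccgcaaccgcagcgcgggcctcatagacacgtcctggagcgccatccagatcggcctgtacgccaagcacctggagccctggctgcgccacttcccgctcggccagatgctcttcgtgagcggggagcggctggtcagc
Of all windows of 50 coding bases, 36.8% of those in Hs3st3a1 and 37.1% of those in Hs3st3b1 occur in the other gene. Over the whole transcripts the shares were 10.7% and 8.56%. The deposited counts of both genes include values that are not whole, so the split between them is an estimate.

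Promoters of Hs6st1, Hs3st3a1 and Hs3st3b1 are given as a description, and shared regulation of these genes was not tested. Each sequence is the 250 bases before the RefSeq start on the gene's own strand (RefSeq, GRCm38.p6), with GC boxes, the letters GGGCGG on either strand, in capitals. The windows are at chr1:36068150-36068399 on the plus strand for Hs6st1, chr11:64435082-64435331 on the plus strand for Hs3st3a1 and chr11:63922285-63922534 on the minus strand for Hs3st3b1.
Hs6st1: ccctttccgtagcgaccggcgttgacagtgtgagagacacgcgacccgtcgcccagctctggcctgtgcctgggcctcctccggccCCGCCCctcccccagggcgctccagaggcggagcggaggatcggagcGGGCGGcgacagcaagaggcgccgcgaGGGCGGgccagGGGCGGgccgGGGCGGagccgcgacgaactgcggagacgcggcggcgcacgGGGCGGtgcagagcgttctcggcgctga
Hs3st3a1: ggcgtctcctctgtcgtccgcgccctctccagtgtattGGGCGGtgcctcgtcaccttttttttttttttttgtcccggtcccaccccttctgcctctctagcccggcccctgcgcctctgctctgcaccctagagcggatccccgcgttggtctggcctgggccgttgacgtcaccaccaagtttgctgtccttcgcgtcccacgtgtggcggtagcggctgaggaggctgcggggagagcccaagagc
Hs3st3b1: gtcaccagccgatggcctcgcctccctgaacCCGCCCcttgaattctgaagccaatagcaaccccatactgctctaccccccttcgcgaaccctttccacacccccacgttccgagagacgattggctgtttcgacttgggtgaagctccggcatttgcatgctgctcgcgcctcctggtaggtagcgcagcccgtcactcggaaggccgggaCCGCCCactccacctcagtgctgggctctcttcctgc
The Hs6st1 window held 6 GC boxes in 76.4% G and C, the Hs3st3a1 window 1 and the Hs3st3b1 window 2. The Hs6st2 window held none of them. It overlaps the annotated gene and is not shown. Windows of other enzymes also overlap their annotated gene, such as those of Chst12, Papss2 and Xylt2. Some lie wholly inside it, such as those of Chst11, Chst15 and Dse. All these windows are counted below, so not every window lies upstream of its gene. A GC box was found in 25 of the 35 enzymes with a window (71.4%), beside 33% of the 27025 genes with one. By call it was found in 8 of 10 higher, 4 of 5 lower and 13 of 18 uncalled enzymes. The windows of Extl1 and Hs3st1, which were not tested, held none. The lower enzymes Csgalnact1, Sulf1, Xylt1, Extl3 and Slc26a2 had no window, so whether its presence follows the direction of change cannot be judged. The TEAD letters GGAATG were found in 5 windows (14.3%, beside 12.6% of all genes) and the RBPJ letters TGGGAA in 2 (5.71%, beside 21.5%), both searched on both strands. The median G and C content was 64.8% in the enzymes' windows and 52.0% in all windows. A match describes these letters only. The 27025 genes compared were not limited to the 17909 identifiers listed in at least 1 library, so they include genes without reads here.

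Among the 10 heparan sulfate modification genes, 4 of the 9 tested were higher in HAS2_Tg and 2 were lower. Of all genes tested, 20.2% were higher and 20.5% lower. The list's median log2 fold change was 0.69, beside -0.01 for all genes. It depended on the setting, at 0.51 with total counts, 0.37 with the stricter filter, 0.39 with no filter and 0.04 to 0.21 with limma, while 4 genes were called higher in each of these. Hs6st2 had 292, 311 and 286 counts in HAS2_Tg and 70, 60 and 70 in Has2_KO, or 26.1 ± 1.07 against 5.07 ± 0.45 CPM (SD, n = 3 libraries each). Every HAS2_Tg library lay far above every Has2_KO library. The log2 fold change was 2.36 (SE 0.12), 5.14-fold, with an adjusted p of 3.92e-10 (edgeR), the largest positive difference among the enzymes. Hs6st1 had 1337, 1110 and 1192 counts against 651, 686 and 617, or 107 ± 11.8 against 49.5 ± 2.47 CPM. The groups did not overlap, and the log2 fold change was 1.11 (SE 0.09), 2.16-fold, adjusted p 1.19e-07 (edgeR). Both 6-O-sulfotransferases of the set were thus higher in HAS2_Tg. On the FPKM scale, which divides by gene length, Hs6st2 went from 1.26 to 1.5 in Has2_KO to 6.09 to 6.78 in HAS2_Tg and stayed below Hs6st1, which had 13.3 to 14.7 and 24.7 to 29.6.

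The 3-O-sulfotransferases of the Hs3st3 pair were higher in HAS2_Tg as well. Hs3st3b1, the more abundant of the pair, had 3438, 3542.4 and 3133.6 counts in HAS2_Tg and 1866.2, 2203 and 1962.5 in Has2_KO. Its level was 297 ± 20.1 against 152.9 ± 12.9 CPM, a log2 fold change of 0.96 (SE 0.08) and an adjusted p of 2.81e-07 (edgeR). Hs3st3a1 had 296, 329.6 and 317.4 counts against 227.8, 234 and 216.5. Its level was 27.7 ± 1.11 against 17.2 ± 0.64 CPM, a log2 fold change of 0.69 (SE 0.09) and an adjusted p of 2.68e-05 (edgeR). Neither gene's groups overlapped. Their sum, which does not depend on how reads are split within the pair, was 324.7 ± 20.1 CPM in HAS2_Tg and 170.1 ± 13.2 CPM in Has2_KO, and was higher in every HAS2_Tg library. Hs3st1, known for making the antithrombin-binding site of heparin, had 1 count over the 6 libraries and was not tested.

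The enzymes that act earlier on the heparan chain went the other way or were not called. Ndst1, the main N-deacetylase and N-sulfotransferase in most tissues, had FPKM values of 27.6, 35.7 and 36.6 in HAS2_Tg and 40.7, 42.9 and 42.9 in Has2_KO. HAS2_Tg replicate 4 was the lowest of the 6, and the log2 fold change of -0.17 (SE 0.09) was not called at an adjusted p of 0.173 (edgeR). Ndst1 was called lower with scaling by total counts (-0.34, adjusted p 0.00929, edgeR), with limma on log2(FPKM + 1) (-0.34, adjusted p 0.0196) and without HAS2_Tg replicate 6 (-0.24, adjusted p 0.0387, edgeR). Its paralog Ndst2 was lower in HAS2_Tg, at 18.5 ± 1.70 against 25.8 ± 1.53 CPM (log2 fold change -0.49, SE 0.10). Glce, the epimerase that turns glucuronic into iduronic acid in heparan sulfate, was also lower (log2 fold change -0.33, SE 0.08). The adjusted p was 0.00135 for Ndst2 and 0.00627 for Glce (edgeR). Hs2st1, which sulfates the 2-O position of iduronic acid, was not called (0.09, SE 0.08), and Ndst3, at 8 to 16 counts per library, missed the threshold at a log2 fold change of 0.85 (SE 0.33). The summed level of the 10 genes was 768.4 to 800.9 CPM in HAS2_Tg against 568.0 to 613.1 CPM in Has2_KO.

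**Figure D2:**
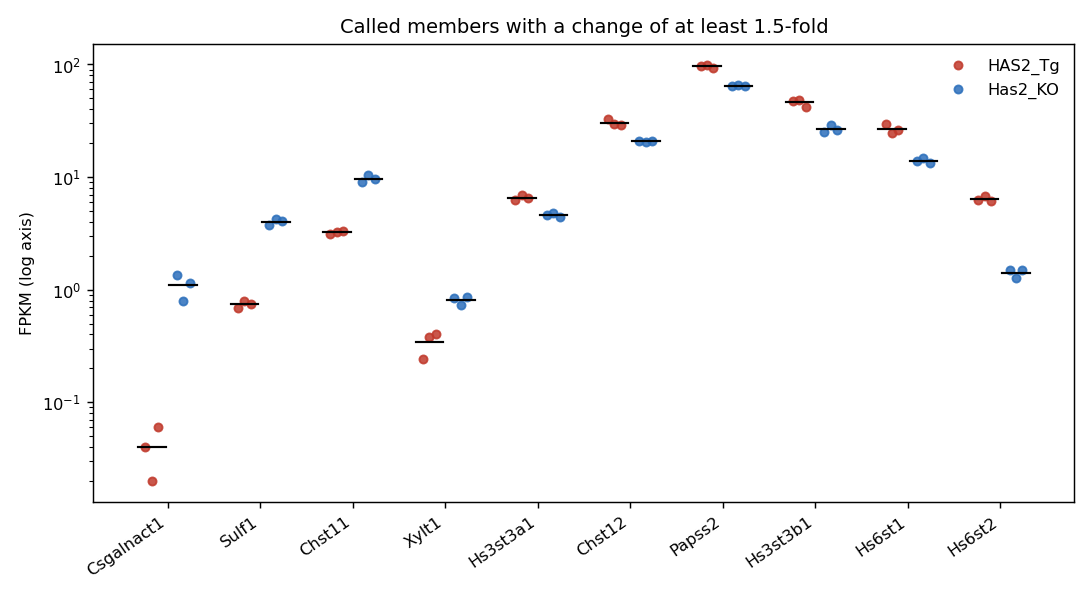
FPKM (log axis) in each library of the 10 enzymes called with a change of at least 1.5-fold; points are libraries and black lines are group means, red for HAS2_Tg and blue for Has2_KO. The groups are apart for all 10 enzymes; Csgalnact1 is the lowest, at 0.02 to 0.06 in HAS2_Tg, and Papss2 the highest.

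Outside the cell, heparan sulfate is edited by the 6-O-endosulfatases Sulf1 and Sulf2, which remove sulfates of the kind that Hs6st1 and Hs6st2 add, and by heparanase (Hpse), which cuts the chain. Of these 3 genes, 1 was lower in HAS2_Tg and 0 were higher, with a median log2 fold change of 0.03 (-0.15 with scaling by total counts). Sulf1 (chr1:12692197-12861192, GRCm38) had 39, 44 and 43 counts in HAS2_Tg and 218, 241 and 238 in Has2_KO. Its level was 3.70 ± 0.18 against 17.7 ± 0.95 CPM. The groups did not overlap, with a log2 fold change of -2.25 (SE 0.13), 4.77-fold lower, and an adjusted p of 2.81e-09 (edgeR). Sulf2, by contrast, was at 27.5, 28.9 and 28.5 FPKM in HAS2_Tg and 30.8, 31.9 and 31.1 FPKM in Has2_KO, and was not called (log2 fold change 0.03, SE 0.07). Hpse was at 23.5 to 25.4 FPKM and 24.0 to 25.3 FPKM and was not called (log2 fold change 0.17, SE 0.07). It was called higher without HAS2_Tg replicate 6 (adjusted p 0.0425 by edgeR). FPKM values are scaled by total reads and the fitted changes by TMM, so equal FPKM values go with a fitted change slightly above zero. Because Sulf2 was the more abundant, the summed level of the 3 genes was alike in both groups, at 198.9 to 202.8 and 198.0 to 208.1 CPM.

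The linkage region is made by the same enzymes for heparan and chondroitin chains. Of its 6 genes, all tested, 1 was lower and 0 were higher, with a median log2 fold change of -0.16. Xylt1, a xylosyltransferase that starts the chain, had 9, 14 and 15 counts in HAS2_Tg and 32, 28 and 33 in Has2_KO. The groups did not overlap, at 1.11 ± 0.27 against 2.36 ± 0.21 CPM, and the log2 fold change was -1.07 (SE 0.27) with an adjusted p of 0.00512 (edgeR). Xylt1 was the minor xylosyltransferase in all 6 libraries, at 0.24 to 0.86 FPKM. Xylt2, which does the same step, was at 4.37, 6.31 and 4.84 FPKM in HAS2_Tg and 6.18, 6.59 and 6.20 FPKM in Has2_KO, and was not called (log2 fold change -0.12, SE 0.12). The galactosyltransferases B4galt7 and B3galt6, the glucuronosyltransferase B3gat3 and the xylose kinase Fam20b had log2 fold changes between -0.24 and 0.23 and were not called. With scaling by total counts B4galt7 was called lower (-0.41, adjusted p 0.00472 by edgeR). B3gat3 was called higher without HAS2_Tg replicate 4 and without HAS2_Tg replicate 6. Its adjusted p was 0.024 to 0.203 over the libraries left out (edgeR).

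Heparan sulfate polymerisation differed little. The copolymerase subunits Ext1 and Ext2 were among the most abundant enzymes of the set. Ext1 was at 46.3, 46.0 and 45.3 FPKM in HAS2_Tg and 45.8, 47.8 and 47.5 FPKM in Has2_KO, and was not called (log2 fold change 0.14, SE 0.07). Ext2 was at 56.4, 46.9 and 44.6 FPKM and 38.1, 44.7 and 44.9 FPKM. On this scale the Ext2 groups overlapped, with HAS2_Tg replicate 4 highest and Has2_KO replicate 7 lowest. On the CPM scale it was 151.5 ± 21.1 against 115.8 ± 10.7, a log2 fold change of 0.39 (SE 0.10) with an adjusted p of 0.00659 (edgeR). That call ended without Has2_KO replicate 7 (0.31, adjusted p 0.0549, with 0.00201 to 0.0549 over the libraries left out) and with scaling by total counts (0.21, adjusted p 0.0852; both edgeR). Extl3, which adds the first N-acetylglucosamine of a heparan chain, was lower by a small margin (log2 fold change -0.21, SE 0.08, adjusted p 0.0483 by edgeR), a call that ended when HAS2_Tg replicate 4 or any 1 of the Has2_KO libraries was left out, at adjusted p values of 0.0767 to 0.161. Extl2 was not called, and Extl1, at 2 to 9 counts per library, was not tested. The 5 genes had 1 called higher and 1 lower, and their median of 0.17 was -0.01 under scaling by total counts.

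Chondroitin polymerisation held the largest single difference. Csgalnact1 and Csgalnact2 add the first N-acetylgalactosamine, the sugar that commits a linker to chondroitin. Csgalnact1 (chr8:68356781-68735621, GRCm38) had 2, 1 and 3 counts in HAS2_Tg and 67, 39 and 56 in Has2_KO. It was near the limit of detection in every HAS2_Tg library, at 0.18 ± 0.09 CPM, beside 4.11 ± 1.08 CPM in Has2_KO. The fitted log2 fold change was -4.47 (SE 0.41) with an adjusted p of 4.68e-07 (edgeR), a size that rests on 6 counts in the lower group. It was also a minor gene in Has2_KO: its FPKM was 0.79 to 1.34 there, beside 14.9 to 15.3 FPKM for Csgalnact2. Csgalnact2 was slightly higher in HAS2_Tg, at 65.6 ± 1.78 against 52.7 ± 0.53 CPM (log2 fold change 0.32, SE 0.07, adjusted p 0.00319 by edgeR), a call that ended with scaling by total counts (0.14, adjusted p 0.139 by edgeR).

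The chondroitin synthases split in direction. Chsy1, which carries both transferase activities of the polymerase, was higher, at 91.8 ± 7.63 against 65.3 ± 1.10 CPM (log2 fold change 0.49, SE 0.08). The polymerising factors Chpf and Chpf2, which act together with Chsy1, were lower, at log2 fold changes of -0.29 (SE 0.09) and -0.45 (SE 0.10). The adjusted p was 0.000164 for Chsy1, 0.02 for Chpf and 0.00276 for Chpf2 (edgeR). The Chpf call ended without HAS2_Tg replicate 6 or any 1 of the Has2_KO libraries, at adjusted p values of 0.0599 to 0.0736 (edgeR). Chsy3, at 30 to 49 counts per library, was not called. In all, 2 of the 6 genes were higher and 3 lower, with a median log2 fold change of -0.21 and summed levels of 261.7 to 310.3 CPM in HAS2_Tg against 280.7 to 291.9 CPM in Has2_KO. That median depended on the setting. It was -0.38 with scaling by total counts (1 higher and 3 lower), -0.006 with the stricter filter (4 tested) and -0.093 without HAS2_Tg replicate 6.

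Of the 9 genes that modify chondroitin and dermatan sulfate, 1 was higher, 1 lower and 7 were not called, with a median log2 fold change of -0.15. With scaling by total counts, 1 was higher and 4 were lower, with a median of -0.32. The pair that changed does the same reaction. Chst11 and Chst12 both add sulfate at the 4-O position of N-acetylgalactosamine in chondroitin. Chst11 (chr10:82984440-83195904, GRCm38) had 211, 218 and 228 counts in HAS2_Tg and 624, 719 and 663 in Has2_KO. The groups did not overlap, at 19.3 ± 0.55 against 50.9 ± 3.55 CPM, and the log2 fold change was -1.40 (SE 0.09), 2.64-fold lower, adjusted p 9.91e-09 (edgeR). Chst12 (chr5:140505569-140525238, GRCm38) had 709, 636 and 635 counts in HAS2_Tg and 467, 458 and 460 in Has2_KO. It was higher in every HAS2_Tg library, at 58.2 ± 4.69 against 35.1 ± 0.38 CPM, with a log2 fold change of 0.73 (SE 0.08), 1.66-fold, and an adjusted p of 5.66e-06 (edgeR). Per length, Chst12 was the more abundant in all 6 libraries, at 20.5 to 32.8 FPKM beside 3.14 to 10.4 FPKM for Chst11.

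No gene of the dermatan branch was called with TMM scaling. Dse, an epimerase that turns chondroitin into dermatan sulfate, was at 38.2, 42.2 and 38.7 FPKM in HAS2_Tg and 40.0, 40.3 and 41.4 FPKM in Has2_KO. The groups overlapped on this scale, and the log2 fold change of 0.14 (SE 0.07) was not called. Its paralog Dsel, the dermatan 4-O-sulfotransferase Chst14, the uronyl 2-O-sulfotransferase Ust and Chst15, which puts a second sulfate on 4-sulfated chondroitin, had log2 fold changes between -0.17 and -0.01 and were not called. With scaling by total counts Chst15 (-0.32, adjusted p 0.00325), Ust (-0.35, adjusted p 0.00709) and Dsel (-0.30, adjusted p 0.0205) were called lower (edgeR). On the FPKM scale the groups did not overlap for Chst15, at 32.1 to 34.7 in HAS2_Tg and 38.6 to 44.1 in Has2_KO, or for Ust, at 6.47 to 7.69 and 8.73 to 9.53. The same held for Dsel, at 4.44 to 5.21 and 5.59 to 6.43, and for Chst14, at 13.3 to 16.6 and 16.8 to 17.9. On the CPM scale, after TMM, the groups of Dsel and of Chst14 overlapped. Chst15 was the most abundant sulfotransferase of the chondroitin group, with a mean of 37.5 FPKM. The 6-O-sulfotransferases Chst3 and Chst7 had at most 31 counts in any library and were not called.

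Sulfate donor supply serves every sulfotransferase above. Of its 4 genes, 2 were higher and 1 lower, with a median log2 fold change of 0.33 (0.15 with scaling by total counts and 0.14 with limma). Papss2, a synthase of PAPS, was the most abundant enzyme of the set, at 96.1, 99.4 and 93.4 FPKM in HAS2_Tg and 64.1, 65.1 and 64.7 FPKM in Has2_KO. Its lowest HAS2_Tg library lay above its highest Has2_KO library. In CPM it was 371 ± 8.19 against 220.5 ± 1.97, a log2 fold change of 0.75 (SE 0.07), 1.68-fold, adjusted p 4.76e-07 (edgeR). Its paralog Papss1 was also higher, at 57.4 ± 2.40 against 39.7 ± 1.65 CPM (log2 fold change 0.53, SE 0.08, adjusted p 7.18e-05 by edgeR). Slc35b2, which carries PAPS into the Golgi, was not called (log2 fold change 0.12, SE 0.13). Slc26a2, the transporter that brings sulfate into the cell, was lower, at 8.4 ± 2.45 against 11.7 ± 0.50 CPM (log2 fold change -0.47, SE 0.17, adjusted p 0.0416 by edgeR). HAS2_Tg replicate 4 was its lowest library, with 64 counts, beside 102 and 121 in the other HAS2_Tg libraries. The Slc26a2 call ended without HAS2_Tg replicate 4 (-0.26, adjusted p 0.12), without HAS2_Tg replicate 5, or without any 1 of the Has2_KO libraries, at adjusted p values of 0.0747 to 0.12 (edgeR). The summed level of the 4 genes was 451.2 to 468.0 CPM in HAS2_Tg against 292.7 to 295.2 CPM in Has2_KO, carried mainly by Papss2.

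**Figure D3:**
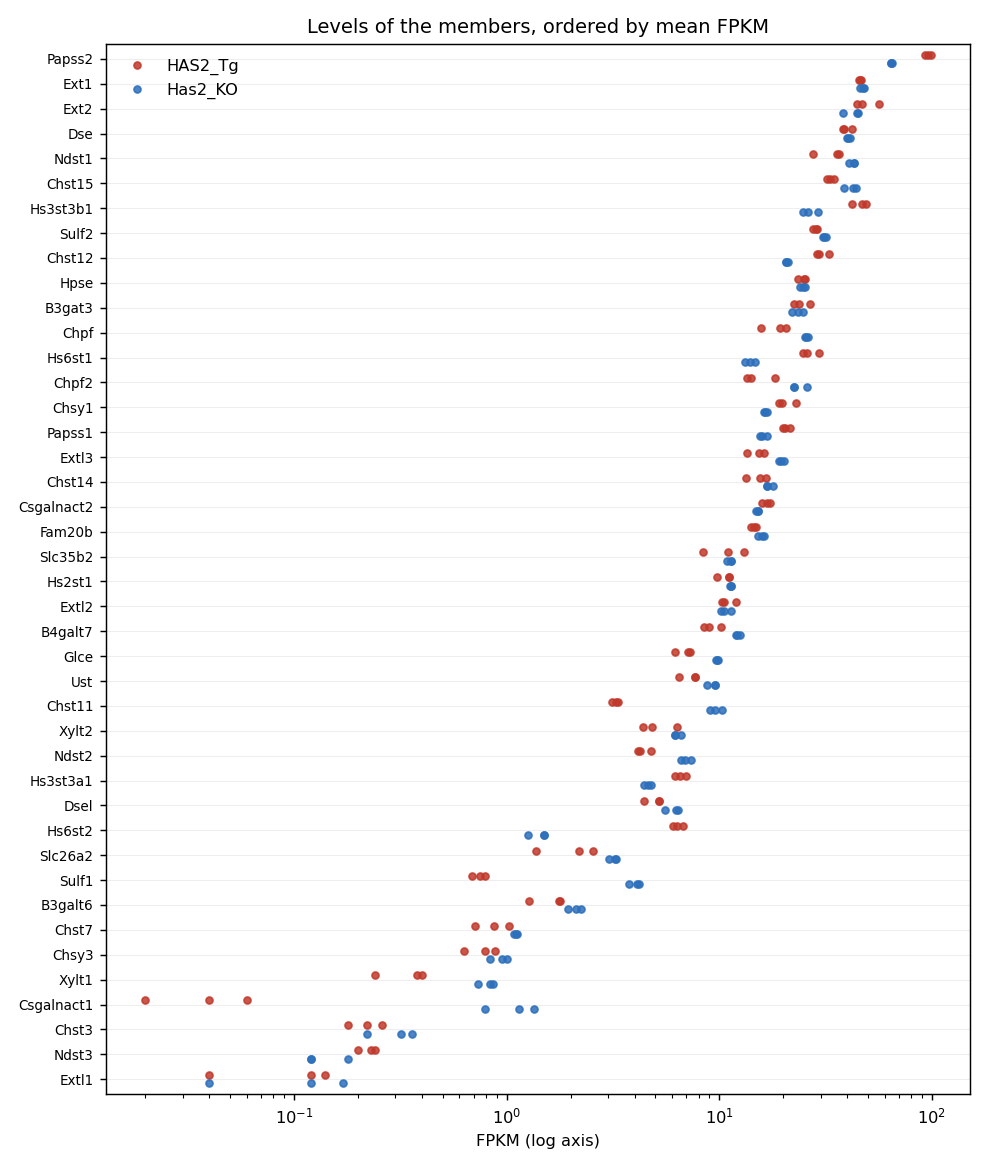
FPKM (log axis) of each enzyme in each library, ordered from top to bottom by the mean over the 6 libraries; red points are HAS2_Tg and blue points Has2_KO. Papss2 stands above the rest, a run of enzymes from Ext1 to Hs3st3b1 follows closely, and Hs3st1, with 1 count in all, is left out; a library at 0 cannot be drawn on this axis.

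Levels per gene length spanned a wide range. By mean FPKM over the 6 libraries the order began with Papss2 at 80.4, Ext1 at 46.4, Ext2 at 46.0, Dse at 40.1 and Ndst1 at 37.7, followed by Chst15 at 37.5 and Hs3st3b1 at 36.4. Papss2 lay above every other enzyme in every library. From Ext1 to Hs3st3b1 each enzyme's range of library values overlapped that of the next in the order, although Ext1, at 45.3 to 47.8 FPKM, lay wholly above Dse, Ndst1 and Chst15. The place of Hs3st3b1 differed by group, with means of 46.1 FPKM in HAS2_Tg and 26.8 FPKM in Has2_KO. At the other end, 5 enzymes (Xylt1, Chst3, Ndst3, Extl1 and Hs3st1) were under 1 FPKM in all 6 libraries. The whole set summed to 683.2 to 733.6 FPKM in HAS2_Tg and 664.5 to 693.6 FPKM in Has2_KO, which overlap. After TMM scaling it summed to 2780 to 2902 CPM against 2382 to 2508 CPM, which do not.

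Several steps are served by a pair of related enzymes, and a ratio within a library does not depend on the scaling between libraries. These ratios are a description, with no test. By FPKM, Sulf2 exceeded Sulf1 by 36.5 to 39.9 times in HAS2_Tg and by 7.56 to 8.18 times in Has2_KO. Chst12 exceeded Chst11 by 8.67 to 10.4 times in HAS2_Tg and by 1.98 to 2.33 times in Has2_KO. In both pairs the gene that was already the more abundant made up more of the pair in HAS2_Tg. The 6-O-sulfotransferases went the other way, with Hs6st1 exceeding Hs6st2 by 3.64 to 4.69 times in HAS2_Tg and by 8.85 to 11.7 times in Has2_KO. Xylt2 exceeded Xylt1 by 12.1 to 18.2 times in HAS2_Tg and by 7.21 to 9.03 times in Has2_KO. Ext1 to Ext2, the subunits of 1 complex, stayed near 1, at 0.821 to 1.01 in HAS2_Tg and 1.06 to 1.2 in Has2_KO. Among the 12 pairs plotted, the groups overlapped for Ndst1 and Ndst2, Chpf and Chpf2, and Chst3 and Chst7. How often unrelated gene pairs overlap was not computed. Some pairs without overlap differed little, such as Papss1 to Papss2, with a mean log2 ratio of -2.23 in HAS2_Tg and -2.01 in Has2_KO.

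**Figure D4:**
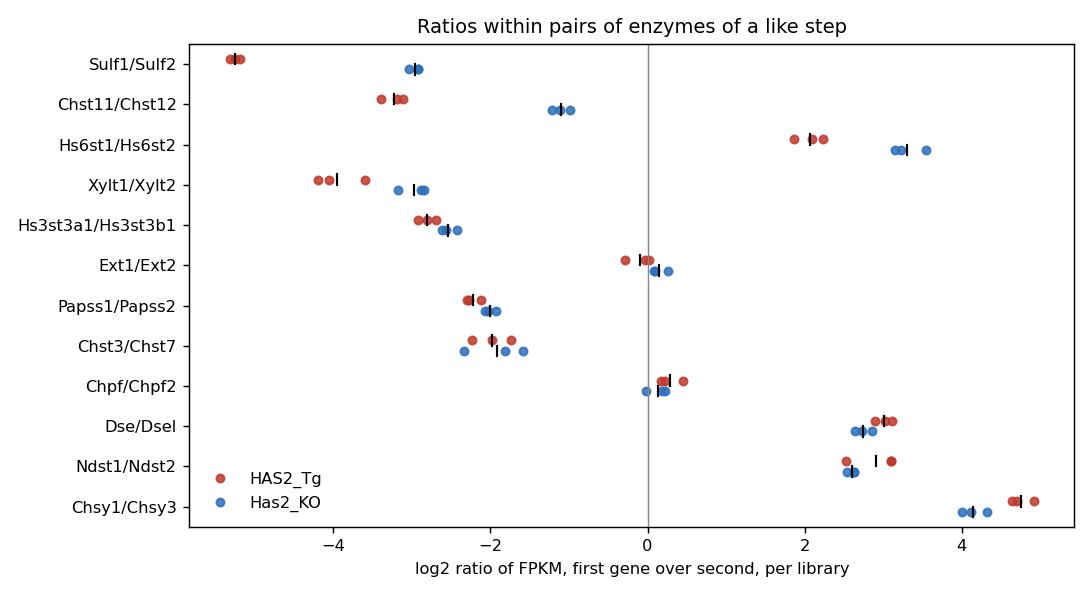
Log2 ratio of FPKM within 12 pairs of enzymes of a like step (horizontal axis, first gene over second); each point is a library, red for HAS2_Tg and blue for Has2_KO, and black ticks are group means. The widest gaps between groups are in Sulf1 to Sulf2, Chst11 to Chst12 and Hs6st1 to Hs6st2; the Csgalnact pair is not drawn because Csgalnact1 had 1 to 3 counts in HAS2_Tg.

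The enzymes lower by 2-fold or more (Xylt1, Sulf1, Csgalnact1 and Chst11) had the same direction as the markers of other liver cells. Those that were higher had the direction of the stellate and smooth muscle markers. In a comparison of 2 groups this holds for any gene called in that direction, and genotype and cell make-up cannot be told apart. Beside Sulf1 and Csgalnact1, the endothelial marker Stab2 had 6, 0 and 7 counts in HAS2_Tg and 355, 380 and 321 in Has2_KO, and Cdh5 15, 26 and 19 against 5554, 5217 and 5100. Among macrophage markers, Clec4f had 0 counts in all 3 HAS2_Tg libraries and 80, 61 and 79 in Has2_KO, and Csf1r had 10, 11 and 14 against 531, 573 and 590. Among stellate markers, Lrat had 102.3 ± 3.24 CPM in HAS2_Tg against 25.9 ± 2.08 CPM in Has2_KO, while Reln was at 1575 ± 231 and 1591 ± 74.9 CPM. The part of these cells in the enzymes' differences was not tested.

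Genes around the pathway were counted from lists chosen alongside the set. Of 16 other isoenzymes and keratan sulfate sulfotransferases, 8 were listed in any library and 3 were tested. Chst1, a keratan sulfate sulfotransferase, was higher (30.9 ± 1.05 against 12.4 ± 1.92 CPM, log2 fold change 1.32), and Chst2, a related N-acetylglucosamine 6-O-sulfotransferase, was lower (log2 fold change -0.69). Of 10 accessory and transport genes, 9 were tested, with 1 higher and 2 lower and a median log2 fold change of -0.07 (0 higher, 5 lower and -0.24 with scaling by total counts). Pxylp1, the phosphatase that removes the linker phosphate placed by Fam20b, had 5.42 ± 0.97 CPM in HAS2_Tg against 8.98 ± 0.82 CPM in Has2_KO (log2 fold change -0.72). The others called were the Golgi protein Tmem165 (0.25) and the phosphatase Bpnt2 (-0.30); the Tmem165 call ended without Has2_KO replicate 7 and with scaling by total counts, and the Bpnt2 call without any 1 of the Has2_KO libraries. Their adjusted p values were then 0.0915 and 0.438 for Tmem165 and 0.0768 to 0.0975 for Bpnt2 (edgeR).

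Lysosomal breakdown of the sulfated chains was measured by 16 genes, all tested, with a median log2 fold change of 0.18. Of these, 7 were higher and 3 lower (4 higher and 5 lower with scaling by total counts), beside 20.2% higher and 20.5% lower of all genes. Idua, which removes iduronic acid, was higher, at 40.2 ± 4.02 against 17.4 ± 1.34 CPM (log2 fold change 1.21, SE 0.10). Sgsh, which removes N-sulfate, was also higher, at 47.4 ± 3.54 against 27.3 ± 1.64 CPM (0.80, SE 0.09). Hgsnat, the membrane enzyme that acetylates the glucosamine left after Sgsh has acted, was lower, at 63.1 ± 8.23 against 161.9 ± 6.88 CPM (-1.36, SE 0.09). Consecutive enzymes of heparan sulfate breakdown therefore differed in opposite directions, with adjusted p values of 2.31e-07, 4.74e-06 and 1.76e-08 (edgeR).

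Of 24 genes for core proteins that can carry such chains, 22 were listed and 18 tested. Of these, 8 were higher and 5 lower, with a median log2 fold change of 0.11 (6 higher and 7 lower with scaling by total counts). Over all genes tested, 20.2% were higher and 20.5% lower. The 3 smallest adjusted p values were of lower genes, while the 8 higher genes reached a log2 fold change of 1.23. Col18a1, the collagen XVIII core protein, had 11.7 ± 0.73 CPM in HAS2_Tg against 58.2 ± 2.82 CPM in Has2_KO (log2 fold change -2.32). Srgn, serglycin of blood and endothelial cell granules, had 1, 4 and 3 counts against 155, 148 and 132 (-5.49). Cd44, the hyaluronan receptor that carries chains in some forms, had 904, 1136 and 1079 counts against 2557, 2670 and 2559 (-1.11). The adjusted p was 5.7e-11, 5.66e-10 and 5.13e-08, in that order (edgeR). These 3 had the same direction as the endothelial and macrophage markers given above, as any gene called lower does. The part of those cells was not tested.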

How the data were processed

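RNA of 6 libraries was sequenced, 3 per genotype, and grouped by the genotype in the labels. Each deposited file lists, per gene, an expected count, which the authors estimated and which need not be whole, and an FPKM value, per the file headers. RSEM (version not given in the sources used here) and the mm10 build are named in the submitters' processing notes. The deposited FPKM values have 2 decimals. A gene listed in some libraries only was taken as 0 in the others, in 12658 cases. Of 17909 identifiers, 17857 were named through the reference table of GRCm38, another name of mm10, and 52 were not.

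After rounding, the expected counts went through filterByExpr and TMM scaling (factors 0.929 to 0.959 in HAS2_Tg and 1.06 in Has2_KO). The test was the robust, two-sided quasi-likelihood test of edgeR with Benjamini-Hochberg adjustment at 0.05. Each SE was obtained from the log2 fold change and its F statistic (size over root of F). Library values are given for enzymes called with a change of at least 1.5-fold and for the 5 highest by mean FPKM; outside the set, Has2 and up to 3 called genes per list by adjusted p are named, and markers by their counts and sums. The members and lists were chosen with earlier results of these data known. Other settings tried were scaling by total counts, by upper-quartile factors or by the size factors of DESeq2. The low-count filter was removed, or raised to a mean of 5 CPM with 1 CPM throughout a group. The Wald test of DESeq2 was run, and limma on log2(FPKM + 1), with and without a minimum FPKM of 1 in 3 libraries, and on log2(FPKM + 0.1). Each library was left out in turn. The fit was tested on simulated counts. Promoters and coding sequences were read from RefSeq and GENCODE tables of GRCm38; 8 of the 43 genes had no promoter entry. Total counts of 11961726 to 12423220 per library leave genes with a few counts imprecise. The fits used edgeR 4.0.16, DESeq2 1.42.0 and limma 3.58.1 in R 4.3.3. Tables and plots used matplotlib 3.10.9, numpy 2.4.6 and pandas 2.3.3 in Python 3.11.15.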

Additional observations from a re-analysis of the deposited data

How the results depend on the processing

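All 10 enzymes called with a change of at least 1.5-fold had the same call in each of the 15 alternatives that tested them, and 5 of the 10 smaller calls did (Ndst2, Glce, Chsy1, Chpf2 and Papss1). Xylt1 and Csgalnact1 were tested in 12 of the 15 only. The stricter filter and the minimum FPKM used with limma removed them. Over all genes, 2625 higher and 2673 lower calls became 1477 and 4827 with total counts, 1399 and 4198 with limma on log2(FPKM + 1), 1376 and 4138 on log2(FPKM + 0.1), and 1366 and 4596 with limma and no filter. With each library left out, they were 2034 to 2727 higher and 2144 to 2897 lower, and the enzymes' calls were 9 to 12 higher and 7 to 10 lower; without HAS2_Tg replicate 4 the enzymes had 11 higher and 8 lower. Scaling by total depth reversed uncalled enzymes only. With total counts, the log2 fold changes were -0.12 for Fam20b, -0.035 for Ext1, -0.083 for Hs2st1, -0.15 for Sulf2, -0.032 for Dse and -0.05 for Slc35b2. With limma on log2(FPKM + 1), filtered or not, they were -0.11 for Fam20b, -0.034 for Ext1, -0.079 for Hs2st1, -0.14 for Sulf2, -0.001 for Hpse, -0.033 for Dse and -0.065 for Slc35b2. With log2(FPKM + 0.1) they were -0.12 for Fam20b, -0.035 for Ext1, -0.086 for Hs2st1, -0.14 for Sulf2, -0.001 for Hpse, -0.034 for Dse and -0.072 for Slc35b2. In these settings the log2 fold changes of all genes shifted from the main fit by a median of -0.166 to -0.176. With single libraries left out, uncalled Slc35b2 ranged from -0.05 to 0.28, Chsy3 from -0.21 to 0.002 and Chst14 from -0.092 to 0.076; the cause was not tested. Extl3 was also not called by the DESeq2 Wald test (adjusted p 0.0652) or without a filter (0.0581, edgeR). Csgalnact1 ranged from -4.85 to -4.15 and Xylt1 from -1.20 to -0.90 with libraries left out, and were -0.998 and -0.44 with limma and no filter, where a pseudocount of 1 lies above most of their FPKM values. Depth limits genes with few counts, such as Csgalnact1 with 6 counts in HAS2_Tg. No paired analysis was possible because the groups share no replicate numbers.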
